A study of Mus musculus with 23 samples.

Results

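The clustered protocadherin genes of the mouse hippocampus were examined in 23 mice on a control or an alcohol diet. Members were the genes of the deposited table whose symbols begin with Pcdha, Pcdhac, Pcdhb, Pcdhga, Pcdhgb or Pcdhgc followed by a number. This gave 57 of 19733 genes, namely 14 of the alpha cluster, 22 of the beta cluster and 21 of the gamma cluster. Pcdhgb8 was not analysed here. All mice were wild-type male C57BL/6J animals, 6 weeks old on arrival. The 9 Ctrl mice drank the AIN93M control liquid diet and the 7 EtOH mice its ethanol version, and both were gavaged with the vehicle CMC-Na. The 7 EtOH-UA mice drank the ethanol diet and were gavaged with urolithin A, a gut bacterial product of dietary ellagitannins, at 200 mg/kg per day in CMC-Na. Treatment lasted 16 weeks and was followed by behavioral tests. The study asked how chronic alcohol, and urolithin A given with it, changed the hippocampus, here measured by RNA sequencing of bulk tissue from 1 mouse per library.

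Clustered protocadherins are cadherin-like adhesion proteins of neurons. Each neuron switches on a small, partly random set of alternate members by choosing among promoters, which CTCF and cohesin bring to distant enhancers, while the C-type members, placed at the ends of the alpha and gamma clusters, are used more uniformly. The proteins pair with identical copies on a neighbouring membrane, and this recognition lets neurites of the same neuron avoid each other and shapes dendrites, axon tiling and synapses.

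Values were FPKM, fragment counts corrected for transcript length and library depth, so levels of different genes can be set side by side. Fold changes were fitted on log2(FPKM + 0.1), a scale that understates the change of low genes. The steps between the lowest values of 44 genes put the depth at a median of 16.4 fragments per kilobase at 1 FPKM (quartiles 15.7 and 17.0). Summed FPKM per library ran from 327896 to 404609. The highest sum belonged to an EtOH-UA mouse in which the choroid plexus transcript Ttr reached 7704.77 FPKM, and Ttr ranged down to 3.88 FPKM in a Ctrl mouse. The summed level of 7 choroid plexus markers had medians of 60.9 FPKM in Ctrl, 1280 FPKM in EtOH and 1861 FPKM in EtOH-UA mice, and its part in the results was not tested. In bulk tissue, fewer cells of a type and less RNA per cell cannot be told apart. None of 7 markers of excitatory hippocampal neurons was absent, and their summed level ran from 1298 to 1644 FPKM. Markers of glia, vessels, choroid plexus and ependyma were present as well, so presence alone does not tell the labelled tissue from others.

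The members lay in a row on chromosome 18 of the mm10 assembly, also called GRCm38. The alpha genes covered chr18:36930285-37188897, the beta genes chr18:37264998-37521419 and the gamma genes chr18:37661775-37841873. Each of the 13 alpha genes matched to a GENCODE transcript joined its own first exon of 2346 to 3028 bases to the same 2860 bases of constant exons. In the 21 gamma genes a first exon of 2542 to 2961 bases was joined to 2116 to 2119 shared bases. All 22 beta genes had a single exon. As a result, a median of 44.9% of 100-base windows in an alpha transcript occurred in no other member, against 55.9% in gamma and 99.8% in beta. Fragments from the constant exons had to be divided among members by the authors' quantification, so the levels of single alpha and gamma members are less certain than those of beta members.

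The 3 most abundant members were all C-type genes. Pcdhgc5 (gene 93708), whose protein binds GABA-A receptors, averaged 37.1 ± 2.90 FPKM (SD, n = 23 mice). Pcdhgc3 (gene 93706), which acts in dendrite growth, averaged 24.3 ± 2.52 FPKM, and Pcdhac2 (gene 353237), needed for the spacing of serotonergic axons, 13.9 ± 1.08 FPKM. These 3 genes kept this order in 23 of 23 mice, and the ranges of Pcdhgc3 and Pcdhac2 over all mice did not overlap, nor did those of Pcdhac2 and the next gene, Pcdhga11. The other C-type genes were far lower. Pcdhgc4 (gene 93707), required for the survival of interneurons, averaged 3.84 ± 0.556 FPKM, and Pcdhac1 (gene 353236) averaged 1.56 ± 0.272 FPKM. Pcdhgc5 stood above 87.3% of the 15985 genes tested.

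Among alternate members the median level was highest in the gamma cluster, though single beta genes stood above many gamma genes. The 18 gamma A and B genes had mean levels between 1.90 FPKM in Pcdhgb4 (gene 93701) and 9.63 FPKM in Pcdhga11 (gene 93723), with a median of 4.29 FPKM. The median was 5.22 FPKM over the 12 gamma A genes and 3.45 FPKM over the 6 gamma B genes. Pcdhga11 was above the next gene, Pcdhga3 at 6.87 FPKM, in 22 of 23 mice, while further down neighbours in the order often swapped places: Pcdhga8 was above Pcdhga12 in 11 of 23 mice. The 22 beta genes had a median of 1.68 FPKM and were led by Pcdhb9 (gene 93880) at 6.62 ± 0.689 FPKM, Pcdhb17 (gene 93888) at 4.32 ± 0.419 FPKM and Pcdhb20 (gene 93891) at 3.73 ± 0.369 FPKM. The 12 alternate alpha genes had a median of 1.58 FPKM, with Pcdha12 (gene 192164) at 3.57 ± 0.472 FPKM and Pcdha9 (gene 192161) at 2.33 ± 0.565 FPKM the highest.

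Of the 57 members, 49 averaged at least 1 FPKM and 12 at least 5 FPKM. The lowest was Pcdhb1 (gene 93872) at 0.0748 ± 0.0487 FPKM, listed at 0 in 2 of 23 mice and the only member under the mean of 0.1 FPKM set for testing, which left 56 tested. Pcdha6 (gene 12937) at 0.170 ± 0.0839 FPKM and Pcdha8 at 0.176 ± 0.0942 FPKM stood well below their neighbours in the alpha cluster, and Pcdha6 was listed at 0 in 1 mouse. The position of a gene along its cluster gave only a loose guide to its level: Spearman's rho between order from the 5′ end and mean level was 0.39 over 12 alternate alpha genes, 0.30 over 22 beta genes and 0.18 over 18 alternate gamma genes, as a description over genes that share the same libraries.

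**Figure D1:**
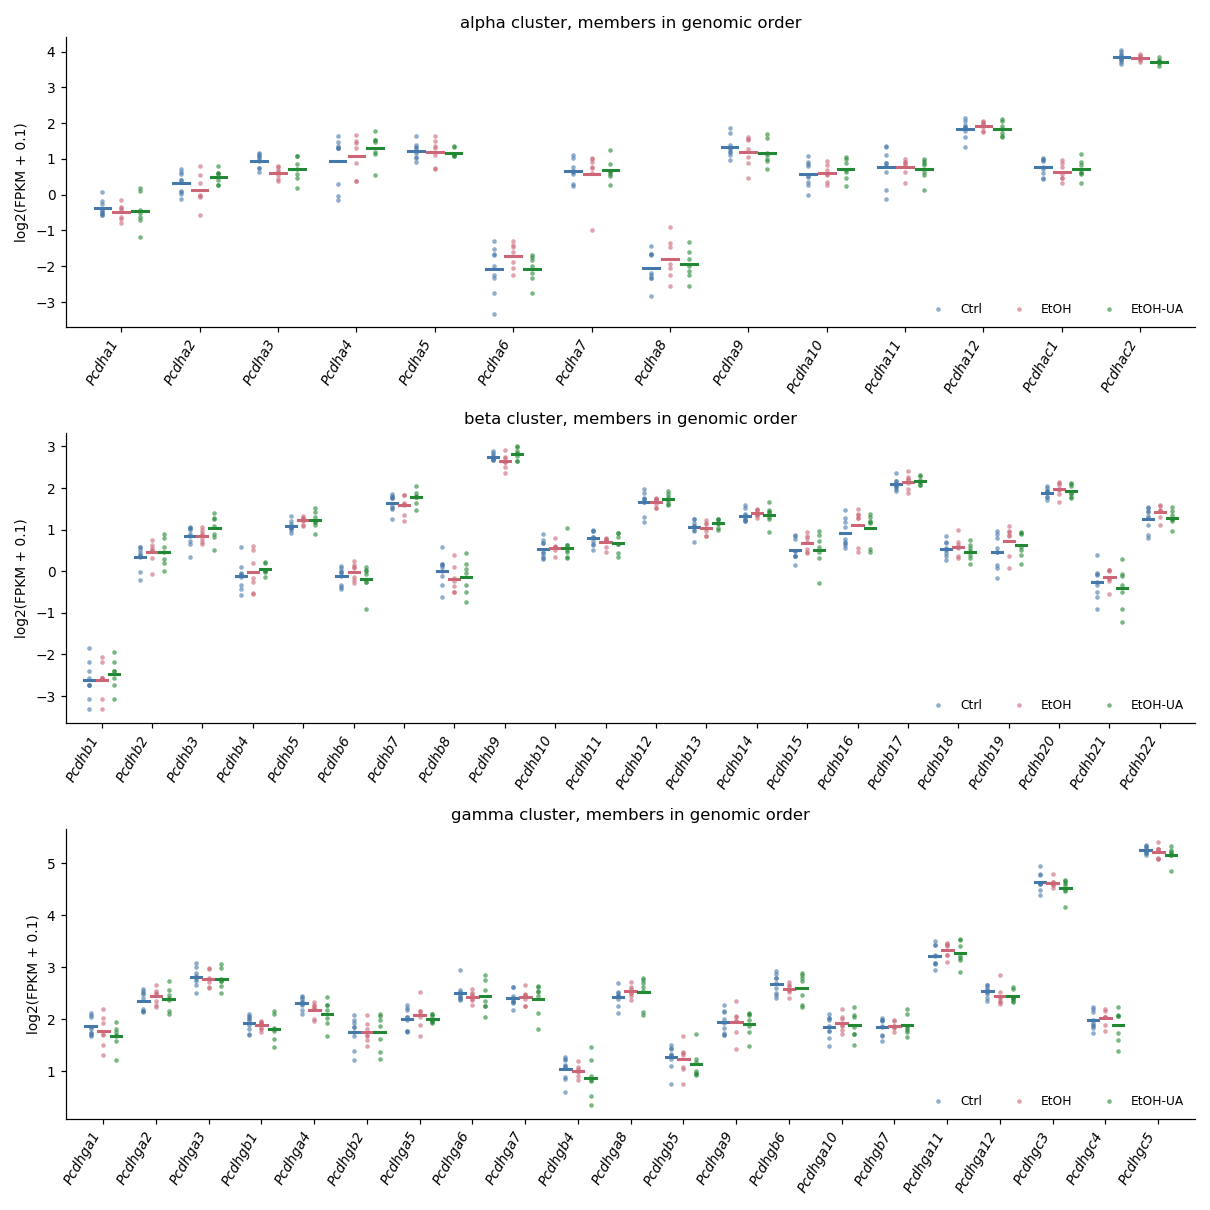
Level of each of the 57 members in every mouse, as log2(FPKM + 0.1), in genomic order within the alpha (top), beta (middle) and gamma (bottom) clusters; points are mice, colored by group (9 Ctrl, 7 EtOH, 7 EtOH-UA), and bars are group means. Pcdhac2, Pcdhgc3 and Pcdhgc5 top their clusters, Pcdha6, Pcdha8 and Pcdhb1 lie lowest, and the 3 groups lie over each other in nearly every gene.

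Summed within each mouse, the members reached 191 to 241 FPKM. The gamma cluster held 65.0% ± 1.5 of this sum (SD, n = 23), the beta cluster 19.99% ± 1.17 and the alpha cluster 14.97% ± 0.728. The 5 C-type genes made up 35.3% ± 1.47. Within gamma, the 3 C-type genes supplied 43.8% ± 1.64, and within alpha, Pcdhac2 alone supplied 40.6% ± 1.76. These shares thus varied little between mice, with an SD of at most 1.76 percentage points in each. They do not cover single alternate members, whose levels had a median CV of 15.5% over 52 genes and 24.7% over the 12 in alpha.

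The cluster sums of the groups overlapped. The alpha sum was 34.8 ± 2.06 FPKM in Ctrl (SD, n = 9), 34.1 ± 1.78 FPKM in EtOH (n = 7) and 33.6 ± 1.56 FPKM in EtOH-UA mice (n = 7). The beta sum was 44.7 ± 2.09, 45.9 ± 2.21 and 46.8 ± 2.19 FPKM in the same order. The gamma sum was 151 ± 5.07, 149.8 ± 6.73 and 145 ± 15.1 FPKM. The wide spread of gamma in EtOH-UA mice came with 1 animal at 115.6 FPKM, the one with the highest summed FPKM of the series, and the group mean without it was 150.1 FPKM. Pcdhac2 as a share of the alpha sum ran from 38.6% to 43.3% in Ctrl, from 39.6% to 42.7% in EtOH and from 37.7% to 41.0% in EtOH-UA mice, so that the EtOH-UA mice reached lower but overlapped both groups.

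**Figure D2:**
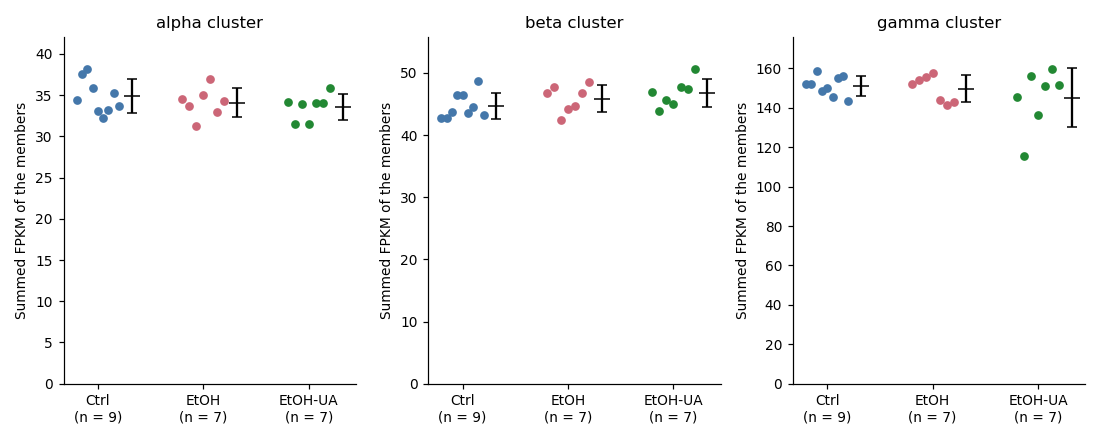
Summed FPKM of the members of each cluster in each mouse; points are mice, and the black bars to their right are the group mean and SD (n = 9, 7 and 7). All axes start at 0. The groups overlap in every cluster, and a single EtOH-UA mouse lies low in the gamma panel at 115.6 FPKM.

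The first comparison asked what 16 weeks of the alcohol diet did. No member differed between EtOH and Ctrl mice at an adjusted p under 0.05 by limma with Benjamini-Hochberg adjustment over all genes, as was true of all genes tested (0 of 15985, 0%). At an unadjusted p under 0.05, 1 of 56 members and 487 of 15985 genes (3.05%) were counted, with 0 members higher against 1.95% of all genes and 1 lower against 1.1%. Of the members, 30 of 56 had a fold change above 0, against 48.6% of all genes: 6 of 14 alpha, 15 of 21 beta and 9 of 21 gamma genes. The median log2 fold change was -0.024 in alpha, 0.062 in beta and -0.020 in gamma, beside -0.0030 over all genes.

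The member at an unadjusted p under 0.05 was Pcdha3 (gene 192163), an alternate alpha gene. Its level was 1.44 to 2.13 FPKM in Ctrl mice (median 1.88), 1.21 to 1.66 FPKM in EtOH mice (median 1.44) and 1.03 to 2.02 FPKM in EtOH-UA mice (median 1.54). Every EtOH mouse was below the Ctrl median, though the ranges overlapped. The log2 fold change was -0.32 (SE 0.12, 95% interval -0.57 to -0.079), with an adjusted p of 0.999 by limma and a two-sided exact permutation p of 0.0045 for this gene alone, over 11440 splits of the mice. Pcdha6, the alpha gene with the smallest p among those higher in EtOH mice, had a log2 fold change of 0.38 (SE 0.25), with 0.00 to 0.31 FPKM in Ctrl and 0.11 to 0.31 FPKM in EtOH mice. The value fell to 0.22 without the Ctrl mouse listed at 0. Adding 1 FPKM before taking logs gave 0.074, and adding 0.01 FPKM gave 0.82.

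In beta, Pcdhb5 (gene 93876) ranged from 1.80 to 2.42 FPKM in Ctrl mice (median 2.0) and from 2.01 to 2.43 FPKM in EtOH mice (median 2.25). All 7 EtOH mice were above the Ctrl median, and the ranges overlapped. Its log2 fold change was 0.13 (SE 0.081), with an exact permutation p of 0.039. By limma the p was 0.13 unadjusted and 0.999 adjusted. Pcdhb9 had a log2 fold change of -0.11 (SE 0.071), which was -0.062 without the EtOH mouse at 5.02 FPKM. In gamma, the values were 0.11 (SE 0.093) for Pcdhga11 and -0.13 (SE 0.088) for Pcdhga4 (gene 93712), which was below the Ctrl median in every EtOH mouse. For the abundant C-type genes the 95% intervals ran from -0.12 to 0.095 for Pcdhac2, from -0.17 to 0.13 for Pcdhgc3 and from -0.17 to 0.074 for Pcdhgc5. They were wider for the low C-type genes, from -0.38 to 0.12 for Pcdhac1 and from -0.18 to 0.26 for Pcdhgc4.

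The second comparison asked what urolithin A added to the alcohol diet. No member differed between EtOH-UA and EtOH mice at an adjusted p under 0.05 by limma, nor did any gene (0 of 15985, 0%). At an unadjusted p under 0.05 there were 2 of 56 members and 523 of 15985 genes (3.27%), and both members were higher in EtOH-UA mice, against 1.83% of all genes. Fold changes were above 0 in 7 of 14 alpha, 10 of 21 beta and 4 of 21 gamma genes, against 51.2% of all genes. The median log2 fold change was 0.0030 in alpha, -0.012 in beta and -0.047 in gamma. The gamma median became 0.0061 without the EtOH-UA mouse of low gamma sum.

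Pcdhb9, the most abundant beta gene, ranged from 5.02 to 7.47 FPKM in EtOH mice (median 6.06) and from 6.13 to 7.92 FPKM in EtOH-UA mice (median 7.12). All 7 EtOH-UA mice were above the EtOH median, with overlap of the ranges. The log2 fold change was 0.19 (SE 0.075, 95% interval 0.031 to 0.34), with an adjusted p of 0.90 by limma and an exact permutation p of 0.058 over 3432 splits. Pcdha2 (gene 353234) ranged from 0.57 to 1.66 FPKM in EtOH mice (median 0.89) and from 1.11 to 1.66 FPKM in EtOH-UA mice (median 1.38). In each of the 7 EtOH-UA mice it exceeded the EtOH median. The estimated log2 fold change was 0.36 (SE 0.17), with an adjusted p of 0.90 by limma and an exact permutation p of 0.075. It was 0.17 in the 15 libraries of summed FPKM below the mean, with 5 mice of each group. In the 8 libraries above the mean the value was 0.85, from only 2 EtOH and 2 EtOH-UA mice.

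Pcdhac2 had the smallest p among alpha genes lower in EtOH-UA mice. It ranged from 13.1 to 15.1 FPKM in EtOH mice (median 13.97) and from 11.96 to 14.3 FPKM in EtOH-UA mice (median 12.9), and 1 of 7 EtOH-UA mice exceeded the EtOH median. The log2 fold change was -0.11 (SE 0.056, 95% interval -0.23 to 0.0068), with an exact permutation p of 0.020. By limma the p was 0.064 unadjusted and 0.90 adjusted. Pcdhb6 gave -0.18 (SE 0.14), Pcdhgc3 -0.11 (SE 0.077), Pcdhgc5 -0.047 (SE 0.062) and Pcdhgb6 0.023 (SE 0.10). Without the EtOH-UA mouse of low gamma sum, these values were -0.063 for Pcdhb6, -0.045 for Pcdhgc3 and 0.0062 for Pcdhgc5.

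Between EtOH-UA and Ctrl mice, which share their mice with the 2 comparisons above, limma again called no member and no gene (0 of 15985, 0%). At an unadjusted p under 0.05 there were 2 of 56 members, both lower, against 1.52% of all genes lower and 3.08% (492 of 15985) in either direction. Fold changes were above 0 in 7 of 14 alpha, 15 of 21 beta and 7 of 21 gamma genes, against 51.2% of all genes, and the medians were -0.022, 0.076 and -0.064. Pcdhac2 ranged from 12.4 to 16.3 FPKM in Ctrl mice (median 13.9), and 1 of 7 EtOH-UA mice was above that median. Its log2 fold change was -0.12 (SE 0.053, 95% interval -0.23 to -0.015), with an adjusted p of 0.999 by limma and an exact permutation p of 0.043.

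Pcdhga4 ranged from 4.19 to 5.38 FPKM in Ctrl mice (median 4.94), from 3.79 to 4.92 FPKM in EtOH mice (median 4.58) and from 3.09 to 5.26 FPKM in EtOH-UA mice (median 4.43). The EtOH-UA range spanned nearly the whole Ctrl range. The log2 fold change against Ctrl was -0.20 (SE 0.088), with an adjusted p of 0.999 by limma and an exact permutation p of 0.046. Only 36.0% of the 100-base windows of Pcdhga4, and 62.6% of those in its first exon, occurred in no other member. Both shares were the lowest of any gamma gene, so its level depends more on how shared fragments were divided. The remaining genes chosen by smallest p had 95% intervals that included 0: 0.36 (SE 0.27) for Pcdha4, 0.14 (SE 0.081) for Pcdhb5, -0.11 (SE 0.096) for Pcdhb11 and 0.088 (SE 0.099) for Pcdhga8. Pcdhgc3 gave -0.13 (SE 0.073) and Pcdhgc5 -0.094 (SE 0.059), and without the EtOH-UA mouse of low gamma sum -0.064 and -0.041. Leaving out the EtOH-UA mouse lowest in Pcdhga4 and highest in Pcdhb5 gave -0.13 for Pcdhga4 and 0.092 for Pcdhb5. Leaving out the Ctrl mouse lowest in Pcdha4 gave 0.23 for it, leaving out the EtOH-UA mouse lowest in Pcdhb11 gave -0.057, and Pcdhga8 ran from 0.043 to 0.16 over the mice left out. No member had groups that did not overlap in any of the 3 comparisons, against 0.00626%, 0.025% and 0.0125% of all genes.

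**Figure D3:**
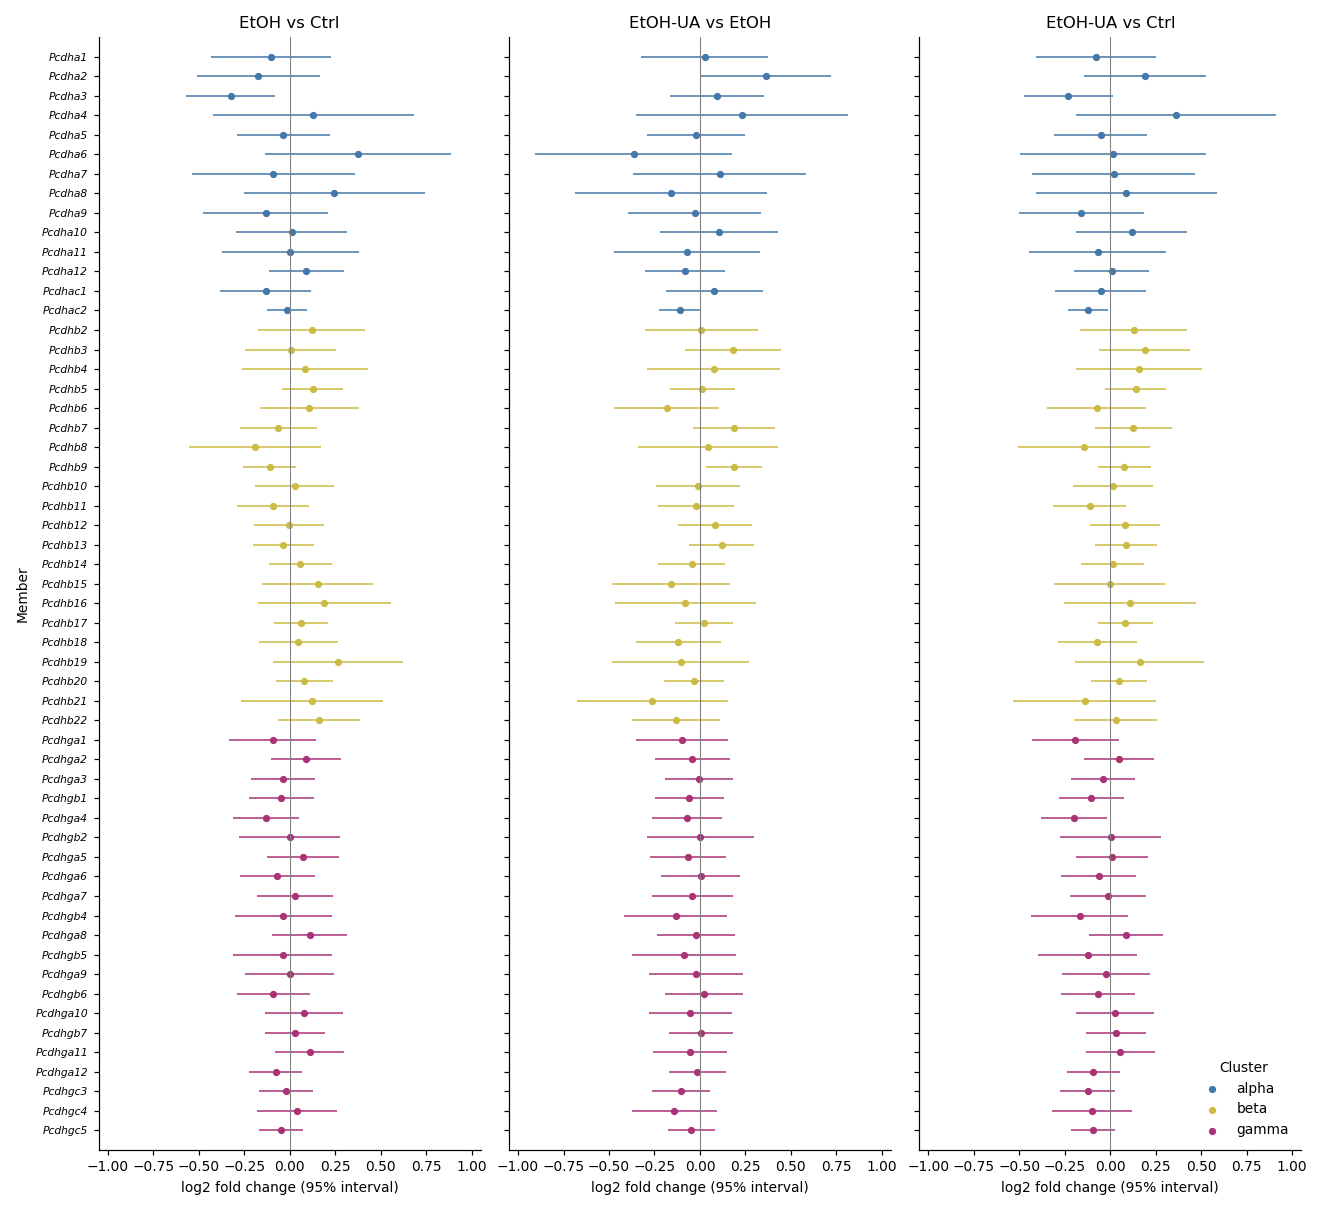
Log2 fold changes of the 56 tested members with 95% intervals from limma, in genomic order from top to bottom and colored by cluster, for EtOH against Ctrl (left), EtOH-UA against EtOH (middle) and EtOH-UA against Ctrl (right) mice. Most intervals include 0, those of Pcdhac2, Pcdhgc3 and Pcdhgc5 are among the narrowest, and those of the low genes Pcdha6 and Pcdha8 are wide.

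Several members varied with the summed FPKM of the library. The sum was above the mean of 345421 in 8 libraries (4 Ctrl, 2 EtOH and 2 EtOH-UA) and below it in 15 (5 of each group). Pcdhb16 (gene 93887) was 1.28 to 1.61 FPKM in the 8 libraries (median 1.38) and 1.53 to 2.74 FPKM in the 15 (median 2.33). The split held inside EtOH mice, at 1.28 and 1.38 FPKM against 2.32 to 2.74 FPKM, and inside EtOH-UA mice, at 1.29 and 1.35 FPKM against 2.14 to 2.51 FPKM, while in Ctrl mice 1.38 to 1.61 FPKM met 1.53 to 2.68 FPKM. Pcdhb19 (gene 93890) was 0.95 to 1.28 FPKM in the 8 libraries and 0.80 to 2.01 FPKM in the 15, with 1 low Ctrl library. No member was without overlap between the 8 and the 15 libraries, against 3.04% of all genes. These differences run across mice of 1 group, and no label names a batch.

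With the groups kept in the model, the slope of log2 level on log2 summed FPKM was below 0 for 17 of 56 members and above 0 for 2 at an adjusted p under 0.05 by limma, against 21.8% of all genes below and 25.9% above. The 17 were 3 alpha, 7 beta and 7 gamma genes. The count rested in large part on 1 library: without the EtOH-UA mouse of highest summed FPKM, 7 members were below (1 alpha, 5 beta and 1 gamma) and 1 was above, against 20.6% and 23.1% of all genes. Those below were Pcdhb8, Pcdhb16, Pcdhb18, Pcdhb19, Pcdhb22, Pcdha7 and Pcdhgb6, and the one above was Pcdhb9. For Pcdhb16 the slope was -3.96 per doubling of the sum (SE 0.65, adjusted p = 2.39e-05 by limma), and -5.07 without that library. Pcdhb16 and the use of summed FPKM were chosen after the data were seen. The adjustment over genes does not cover that choice, so this p is a description and not a test. Slope and GENCODE transcript length had a Spearman's rho of -0.15 over the 55 tested members with a transcript length. Over the 21 beta genes among them it was -0.48. Both values are a description over genes of the same libraries. For several beta genes, such as Pcdhb22 with 6609 bases, the GENCODE transcript was longer than the RefSeq gene, so the value depends on the lengths chosen. Summed levels of the 22 regulators of the clusters did not overlap, at 326 to 353 FPKM in the 8 libraries and 359.5 to 378 FPKM in the 15. Those of the 27 partners overlapped, with medians of 1866 and 1883 FPKM. A link between the regulators and the members was not tested. Marker sums moved with the same split: medians in the 8 and the 15 libraries were 38.7 and 1280 FPKM for 7 choroid plexus markers, 8.08 and 14.96 FPKM for 4 ependymal markers, 39.7 and 30.8 FPKM for 5 meningeal markers, 1212 and 1398 FPKM for 5 oligodendrocyte markers and 677 and 737 FPKM for 6 astrocyte markers. Medians were 408 and 359 FPKM for inhibitory neuron markers and 64.3 and 57.0 FPKM for endothelial markers. Pan-neuronal markers had medians of 1946 and 1926 FPKM, and excitatory hippocampal neuron markers 1398 and 1389 FPKM. Microglial markers stood at 65.8 and 63.5 FPKM, oligodendrocyte precursor markers at 23.8 and 24.2 FPKM and serotonergic markers at 0.45 FPKM in both. The ranges of all these marker sums overlapped between the 8 and the 15 libraries. The part of cell make-up, RNA quality or library preparation in this pattern was not tested.

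**Figure D4:**
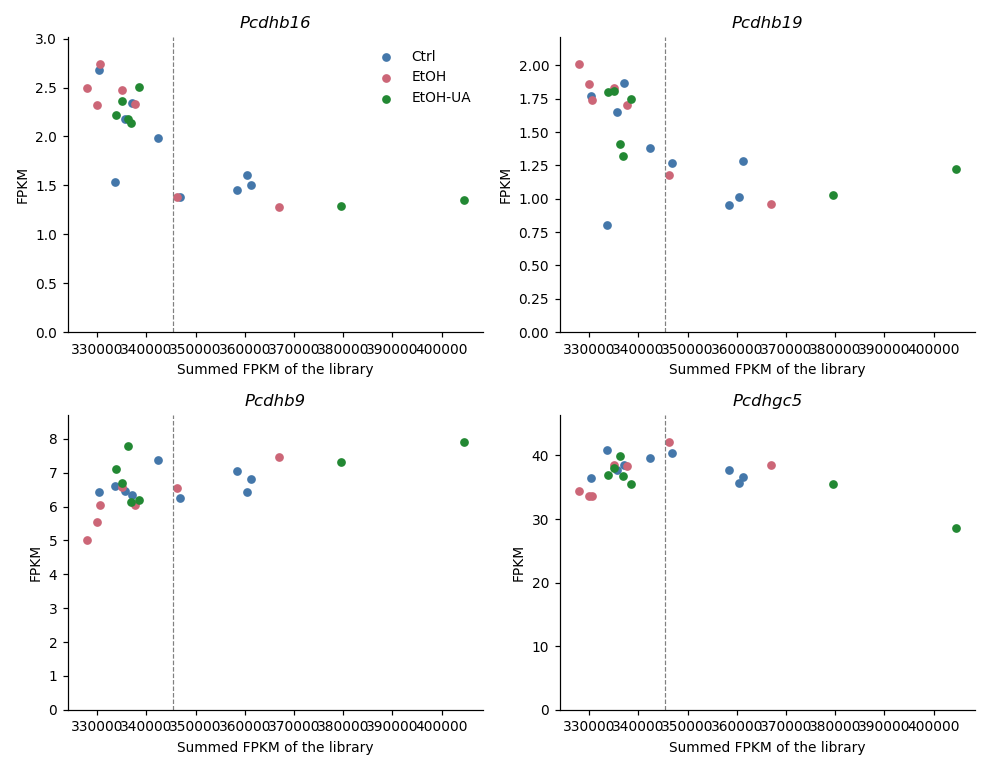
FPKM of Pcdhb16, Pcdhb19, Pcdhb9 and Pcdhgc5 in each mouse (vertical axes, starting at 0) against the summed FPKM of its library (horizontal axes), colored by group; the dashed line is the mean sum. Pcdhb16 is 1.28 to 1.61 FPKM right of the line in all 3 groups and 1.53 to 2.74 FPKM left of it, and Pcdhgc5 is lowest in the library farthest right.

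Spread between mice was set against the error of counting fragments alone. At the estimated depth a beta gene rested on a median of 119 fragments per library. The SD within groups exceeded the counting SD in all 22 beta genes, by a median of 1.70 times, from 1.14 times in Pcdhb13 to 3.33 times in Pcdhb16. For alpha and gamma genes only the fragments of the first exon were counted as their own, which gave medians of 1.65 times over 13 alpha genes and 1.997 times over 21 gamma genes. Within first exons, 88.9% to 100% of alpha windows and 62.6% to 100% of gamma windows occurred in no other member. For genes at the low end the counting SD may be too small. Lengths were those of GENCODE transcripts, which for several beta genes, such as Pcdhb19 (7138 bases), exceeded the RefSeq gene. If the FPKM rested on the shorter lengths, the fragments of these genes are overstated and their ratios too high. The highest ratios after Pcdhb16 were 3.27 for Pcdha4, 3.25 for Pcdhgc3, 3.24 for Pcdhb19 and 3.09 for Pcdhgc5. Pcdha4 was the most variable alternate member above 2 FPKM, from 0.81 to 3.33 FPKM (CV 34.1%), and Ctrl mice alone ran from 0.81 to 3.04 FPKM. Pcdhac2 and Pcdhgc5 had the smallest CV, 7.80% and 7.81%, and that of Pcdhgc3 was 10.4%. At the same CV a gene with more fragments has a higher ratio, so high ratios of abundant genes do not mark a large spread relative to level. The SDs of Pcdhgc3 and Pcdhgc5 also include the EtOH-UA mouse of low gamma sum.

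**Figure D5:**
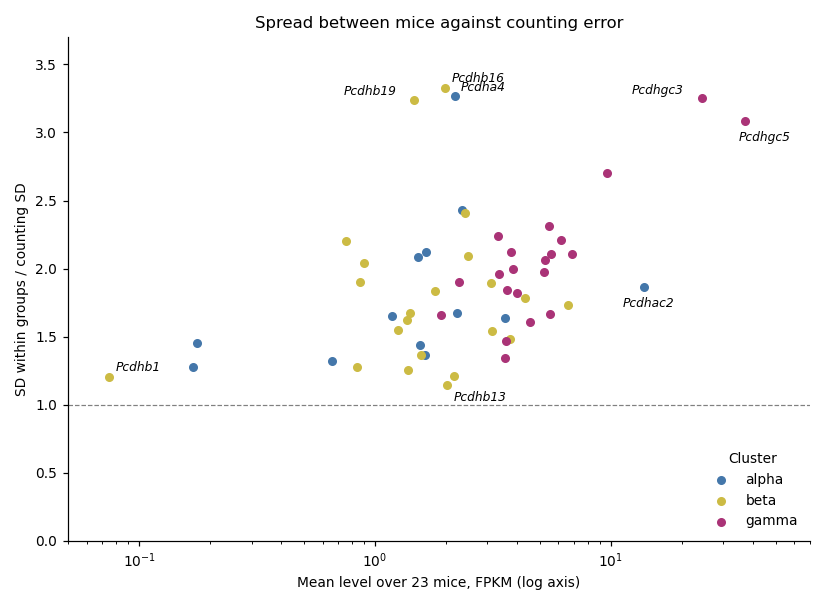
Within-group SD of each member divided by the SD expected from counting fragments alone (vertical axis), against its mean level in FPKM (log axis), for 56 members with a GENCODE transcript, colored by cluster; for alpha and gamma genes only first-exon fragments are counted. The dashed line marks a ratio of 1, and every member lies above it, with Pcdhb16, Pcdha4, Pcdhgc3, Pcdhb19 and Pcdhgc5 above 3. Fragments use GENCODE lengths, which exceed the RefSeq gene for some beta genes such as Pcdhb19. At the same CV the ratio rises with the number of fragments.

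The genes that act on the clusters or with their proteins were examined next. None of the 22 regulators, 27 partners or effectors, or 11 tested non-clustered protocadherins passed an adjusted p of 0.05 by limma in any comparison. At an unadjusted p under 0.05 there was 1 gene, Setdb1, in both comparisons of EtOH-UA mice. The share of all genes at that level was 3.05% for EtOH against Ctrl, 3.27% for EtOH-UA against EtOH and 3.08% for EtOH-UA against Ctrl. Setdb1, a histone H3 lysine methyltransferase that silences chromatin at the clusters, ranged from 13.2 to 14.9 FPKM in Ctrl mice (median 14.6), from 13.0 to 14.9 FPKM in EtOH mice (median 13.96) and from 12.1 to 14.1 FPKM in EtOH-UA mice (median 12.9). Its log2 fold change in EtOH-UA mice was -0.13 against Ctrl (SE 0.043) and -0.10 against EtOH (SE 0.045), with adjusted p of 0.999 and 0.90 by limma.

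Ctcf, the insulator protein that binds the promoters and enhancers of the clusters, was 25.5 ± 0.887, 25.6 ± 0.558 and 25.2 ± 1.45 FPKM in Ctrl, EtOH and EtOH-UA mice. The cohesin subunit Rad21 averaged 43.6, 44.2 and 45.3 FPKM, its loader Nipbl 8.38, 9.39 and 8.51 FPKM and its release factor Wapl 14.8, 14.9 and 14.6 FPKM in the same order. Smchd1, a chromatin protein that represses the clusters, averaged 7.28, 7.74 and 7.61 FPKM, and the DNA methyltransferase Dnmt3b, which marks the promoters in early development, was low at 0.306, 0.274 and 0.274 FPKM. The median log2 fold change of the 22 regulators was 0.019 for EtOH against Ctrl, -0.039 for EtOH-UA against EtOH and -0.0092 for EtOH-UA against Ctrl mice.

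Downstream, the adhesion kinases Ptk2 and Ptk2b, which the constant domains of alpha and gamma proteins bind and restrain, averaged 30.4, 30.2 and 30.3 FPKM and 221, 223 and 236 FPKM. The WAVE complex subunits Cyfip2 and Wasf1, through which the proteins act on actin, averaged 157, 158 and 154 FPKM and 138, 139 and 137 FPKM, and the kinase Fyn 41.3, 41.3 and 41.6 FPKM. Medians over the 27 genes were 0.00064, 0.0055 and 0.0092 for the 3 comparisons. Of the non-clustered protocadherins, which lie outside the clusters, Pcdh1 averaged 44.0, 44.5 and 41.6 FPKM, Pcdh9 24.8, 25.02 and 23.4 FPKM, Pcdh17 13.2, 14.1 and 13.7 FPKM and Pcdh19 12.7, 12.9 and 12.5 FPKM, so that the mean of Pcdh1 was above that of every clustered member. Fold changes of the 11 genes were above 0 in 11 for EtOH against Ctrl mice (from 0.00049 to 0.17; 48.6% of all genes), in 1 for EtOH-UA against EtOH mice and in 4 for EtOH-UA against Ctrl mice (51.2% of all genes in each). These comparisons share their mice, so their signs are not independent. The summed level of the list had medians of 154 FPKM in the 8 libraries of high summed FPKM and 174 FPKM in the other 15.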

How the data were processed

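The authors prepared poly(A)+ hippocampal RNA per their methods (the labels name total RNA), sequenced it on a BGI platform, aligned the reads to mm10 and quantified them with RSEM. The submitters' processing notes name Bowtie2 2.2.5, RSEM 1.2.8 and HISAT2 2.1.0. The deposited table holds FPKM to 2 decimals, with no counts, so the count test of the methods was not rerun. Columns were assigned to groups by name, and no 2 columns were identical. Each label is taken as 1 mouse. The 15985 genes averaging 0.1 FPKM or more were fitted as log2(FPKM + 0.1) with limma 3.58.1 (R 4.3.3), 1 model of 3 groups, eBayes with trend, Benjamini-Hochberg over all genes and a threshold of 0.05. The pipeline was tested on simulated data. Exact permutation tests of single members were two-sided and unadjusted for the 24 pairs of gene and comparison tested. Gene models came from RefSeq and GENCODE for GRCm38. No GENCODE transcript bore the name Pcdha10. Counting error and depth use full annotated GENCODE lengths, which may differ from the lengths behind the FPKM.

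Members named were the C-type genes, the 3 highest and the lowest of each cluster, and for each comparison and cluster the gene with the smallest p in each direction. Regulators, partners and non-clustered protocadherins were written by hand, with 12 marker lists. Members and lists were chosen with earlier results of these data known. Pcdha7, Pcdha8, Pcdhb8, Pcdhb13, Pcdhb16, Pcdhb18, Pcdhb19, Pcdhb22, Pcdhga3 and Pcdhga12 were named after their values were seen. The split by summed FPKM was also chosen after the data were seen, after 2 other splits, 1 of them built on a gene picked for its likeness to Pcdhb16, had been tried and dropped. Alternatives were other pseudocounts, filters, scalings, moderation, weights, samples and each mouse left out.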

Additional observations from a re-analysis of the deposited data

Results flagged for a closer look

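Within groups, 84 sets of values (28 measures in 3 groups) were searched for a mouse far from the others, where chance flags about 1 in 20, or 4.2 sets. The search marked 3, all the lowest of the 7 EtOH-UA mice and all the mouse with the highest summed FPKM, 404609, and the highest Ttr, 7704.77 FPKM. In it Pcdhgc5 was 28.6 FPKM against 35.5 FPKM in the next mouse, a gap of 0.647 of the range on the log2 scale. Pcdhgc3 was 17.7 FPKM against 22.1 FPKM (0.618), and Pcdhb6 was 0.43 FPKM against 0.73 FPKM (0.638). The part of the choroid plexus transcripts or of the library itself in these values was not tested.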

How the results depend on the processing

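No clustered protocadherin gene was called in any comparison under any alternative run. Of 838 refits of single fold changes, 820 kept their direction and 18 reversed, 9 of them on leaving out 1 mouse, and 0 passed the threshold. All genes called rose from 0 to 1 with array quality weights (EtOH against Ctrl) and in the 8 libraries of high summed FPKM (EtOH-UA against Ctrl), and ran from 0 to 1 over mice left out in each comparison. Those 8 libraries held only 4 Ctrl, 2 EtOH and 2 EtOH-UA mice, the EtOH-UA mouse of low gamma sum among them. In them the EtOH-UA against EtOH medians were -0.13 in alpha and -0.27 in gamma, and the gamma median against Ctrl was -0.25. In the other 15 the gamma median against EtOH was 0.058. Reversed values with array weights were 0.0097 for Pcdhac2 (EtOH against Ctrl) and 0.0056 for Pcdhgc5 (EtOH-UA against EtOH), which was 0.069 in the 15 libraries. In the 8 libraries, EtOH against Ctrl gave 0.076 for Pcdhb9, 0.15 for Pcdhgc3 and 0.0997 for Pcdhgc5, EtOH-UA against EtOH gave -0.32 for Pcdhgb6, and EtOH-UA against Ctrl gave -0.19 for Pcdha4 and -0.26 for Pcdhga8. Mice left out reversed Pcdhac2 (EtOH against Ctrl, -0.039 to 0.0090), Pcdhgc3 (EtOH against Ctrl, -0.051 to 0.017), Pcdhgb6 (EtOH-UA against EtOH, -0.024 to 0.086) and Pcdhgc5 (EtOH-UA against EtOH, -0.074 to 0.0062). The cause was not tested. No paired analysis was possible because the columns do not carry the replicate numbers of the labels. Across scalings the median log2 fold change of all genes lay between -0.017 and 0.011, and for EtOH-UA against EtOH it went from 0.0033 to -0.017 with upper-quartile scaling. Members under 1 FPKM rest on few fragments, and shared exons limit single alpha and gamma genes.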
